A study of Homo sapiens with 18 samples.

Results

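The RPL13A-hosted snoRNAs are U32A, U33, U34 and U35A, 4 small nucleolar RNAs cut from introns of RPL13A, a gene that encodes a protein of the large ribosomal subunit. They were taken by name from a table of 2462 small RNA features and are 4 of its 268 C/D box snoRNAs. Small RNA was sequenced from extracellular vesicles (EVs) and from the cells that released them, all of HEK293T, an established line from human embryonic kidney. The 18 libraries form 6 groups of 3: EVs of ATG7-/- clone F2, EVs of ATG12-/- clone D9 and EVs of wild type cells, then the cells of ATG7-/- clone F2, of ATG12-/- clone D9 and of the wild type. All 6 groups had gone 24 h without serum, wild type included, and each knockout is 1 clone, so that a difference of the clone and a difference of the genotype cannot be told apart. ATG7 and ATG12 act in the conjugation of LC3, an autophagy protein, to membrane lipid, and the comparisons ask which small RNAs depend on that machinery for their presence in EVs.

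C/D box snoRNAs are kept in the nucleolus as particles with the methyltransferase fibrillarin, where they pair with ribosomal RNA and direct methylation of single riboses. U33 guides such a methylation in the small-subunit ribosomal RNA, U32A has guide sequences for the small and the large subunit, and U34 and U35A guide in the large subunit. In Chinese hamster and mouse cells, snoRNAs of this host gene are also known from lipotoxic and oxidative stress, during which they accumulate outside the nucleus.

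The 4 snoRNAs lie on the plus strand of chromosome 19 (GRCh38) within RPL13A, which spans chr19:49487554-49492308 and has 8 exons in its main transcript. U32A is in intron 2 (chr19:49489965-49490048, 84 bases), U33 in intron 4 (chr19:49490615-49490699, 85 bases), U34 in intron 5 (chr19:49490904-49490974, 71 bases) and U35A in intron 6 (chr19:49491175-49491260, 86 bases). U34 ends 65 bases before the next exon and U33 79 bases before it, whereas U35A ends 164 and U32A 183 bases before it.

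**Figure D1:**
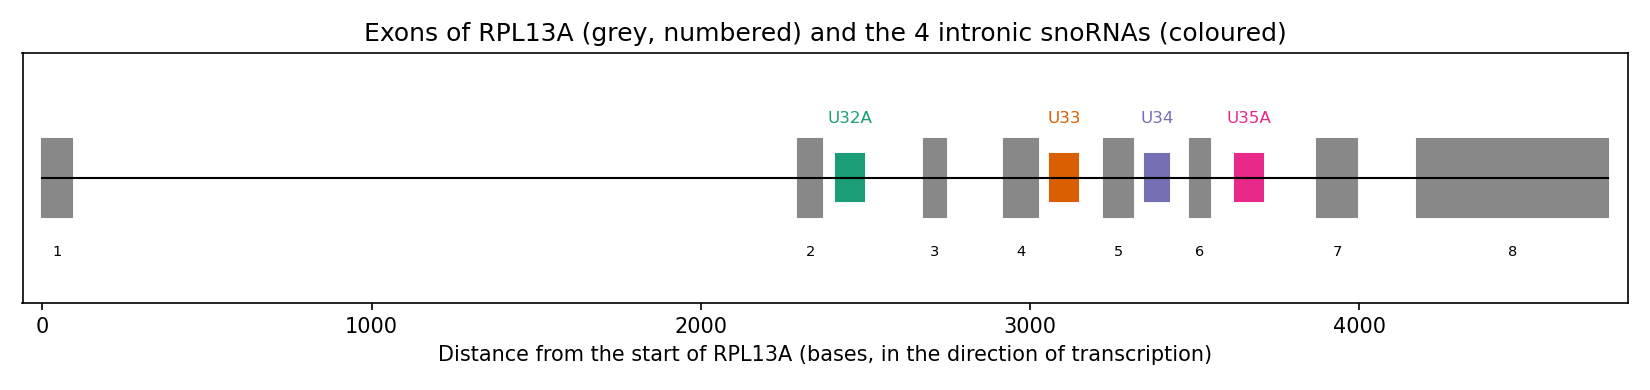
Exons of RPL13A (grey, numbered 1 to 8) and the 4 snoRNAs (coloured), drawn to scale against the distance in bases from the start of the gene in the direction of transcription. U32A lies in intron 2, U33 in intron 4, U34 in intron 5 and U35A in intron 6.

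The sequences are shown because these RNAs share a host transcript and a class but, as described further on, differ in their EV level relative to cells. They are from GENCODE release 29 transcripts (GRCh38, plus strand), written 5′ to 3′ with T for U. Capitals mark the core of box C (TGATG) and box D (CTGA), between which the guide sequences lie.
U32A: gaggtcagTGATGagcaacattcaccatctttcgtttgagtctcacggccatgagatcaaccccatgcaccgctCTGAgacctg
U33: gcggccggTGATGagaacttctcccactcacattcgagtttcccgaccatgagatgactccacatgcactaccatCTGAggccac
U34: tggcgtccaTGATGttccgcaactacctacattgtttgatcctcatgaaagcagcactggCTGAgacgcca
U35A: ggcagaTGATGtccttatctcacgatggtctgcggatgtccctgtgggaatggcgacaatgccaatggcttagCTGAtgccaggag

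The stretch between the boxes is 61 bases in U32A, 62 in U33, 46 in U34 and 62 in U35A, so U34 is the shortest of the 4 through that stretch. U32A and U33 are identical at 70.1% of aligned positions, and the other 5 pairs of RPL13A-hosted snoRNAs at 53.0% to 56.2%. TGATG followed by CTGA on the RNA strand was found in 247 of 275 annotated SNORD transcripts (89.8%) and in 7 of 142 SNORA transcripts (4.9%), so the boxes mark the class and not these 4 RNAs. All 4 are longer than the 50-base reads.

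Values are normalised reads, the deposited reads of a feature divided by 1 size factor per library. The libraries held 1881080 to 3382605 assigned reads in EVs and 1188388 to 1804089 in cells. The 3 ATG7-/- EV libraries (2647529 to 3382605) were all deeper than the 3 wild type EV libraries (1881080 to 2185734). One read was worth 1.17 to 1.89 normalised reads in EVs and 0.477 to 0.824 in cells. The smallest counts behind the 4 snoRNAs were those of U35A, with 28, 68 and 46 reads in ATG7-/- EVs and 72, 80 and 49 reads in ATG12-/- EVs. All 4 passed the filter on low values in every comparison (a value of 10 in at least 3 of the fitted libraries). The ATG7 and ATG12 mRNAs are not analysed here, so the knockouts could not be checked. Fold changes are log2 differences of normalised reads + 1 with their standard error (SE), adjusted p-values come from limma (Benjamini-Hochberg, over every feature tested in a comparison), and a feature is called where that value is under 0.05.

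In wild type cultures each of the 4 snoRNAs was lower in EVs than in cells, and U32A was by far the least depleted. U32A had 746, 574 and 527 normalised reads in wild type EVs (replicates 1 to 3), against 1596, 1631 and 1755 in wild type cells. Its EV level was 37.1% of its cell level, a log2 change of -1.45 (SE 0.15, adjusted p = 1.41e-08). U33 had 361, 330 and 341 normalised reads in wild type EVs, against 6443, 5921 and 5263 in wild type cells. The EV level of U33 was 5.86% of the cell level, a log2 change of -4.08 (SE 0.16, adjusted p = 4.23e-16). U34, the most abundant of the 4 in cells, had 549, 542 and 541 normalised reads in wild type EVs, against 20998, 18105 and 18180 in wild type cells. This left U34 in EVs at 2.85% of its cell level, a log2 change of -5.13 (SE 0.14, adjusted p = 1.82e-18). U35A had 374, 350 and 458 normalised reads in wild type EVs, against 4194, 4137 and 3795 in wild type cells, an EV level of 9.75% of the cell level and a log2 change of -3.36 (SE 0.21, adjusted p = 1.14e-12). In all 4 cases every EV library was below every cell library. The percentages rest on the deposited size factors, and the sizes of these changes depended on the processing. Over the 10 alternative settings the log2 change was -2.96 to -1.22 for U32A and -5.60 to -3.86 for U33. It was -6.64 to -4.90 for U34 and -4.88 to -3.14 for U35A.

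All 4 were thus called lower in wild type EVs, where 42.9% of all 905 features tested were called lower than in cells and the groups of 83.8% did not overlap. Of the other C/D box snoRNAs, 121 of 146 tested were lower and 14 higher, with a median log2 change of -3.68, against -3.72 over the 4 and -0.13 over all features. From the lowest, U34 ranked 38th, U33 70th, U35A 86th and U32A 117th of the 150 C/D box snoRNAs tested. A lower value in EVs is relative to the other reads of that library through its size factor, and is not a share of its reads. As a share of assigned reads, the 4 together took 0.0653% in wild type EVs and 3.02% in wild type cells. Fewer vesicles that carry the RNA and less of it per vesicle cannot be told apart, and EV and cell libraries did not overlap in depth.

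**Figure D2:**
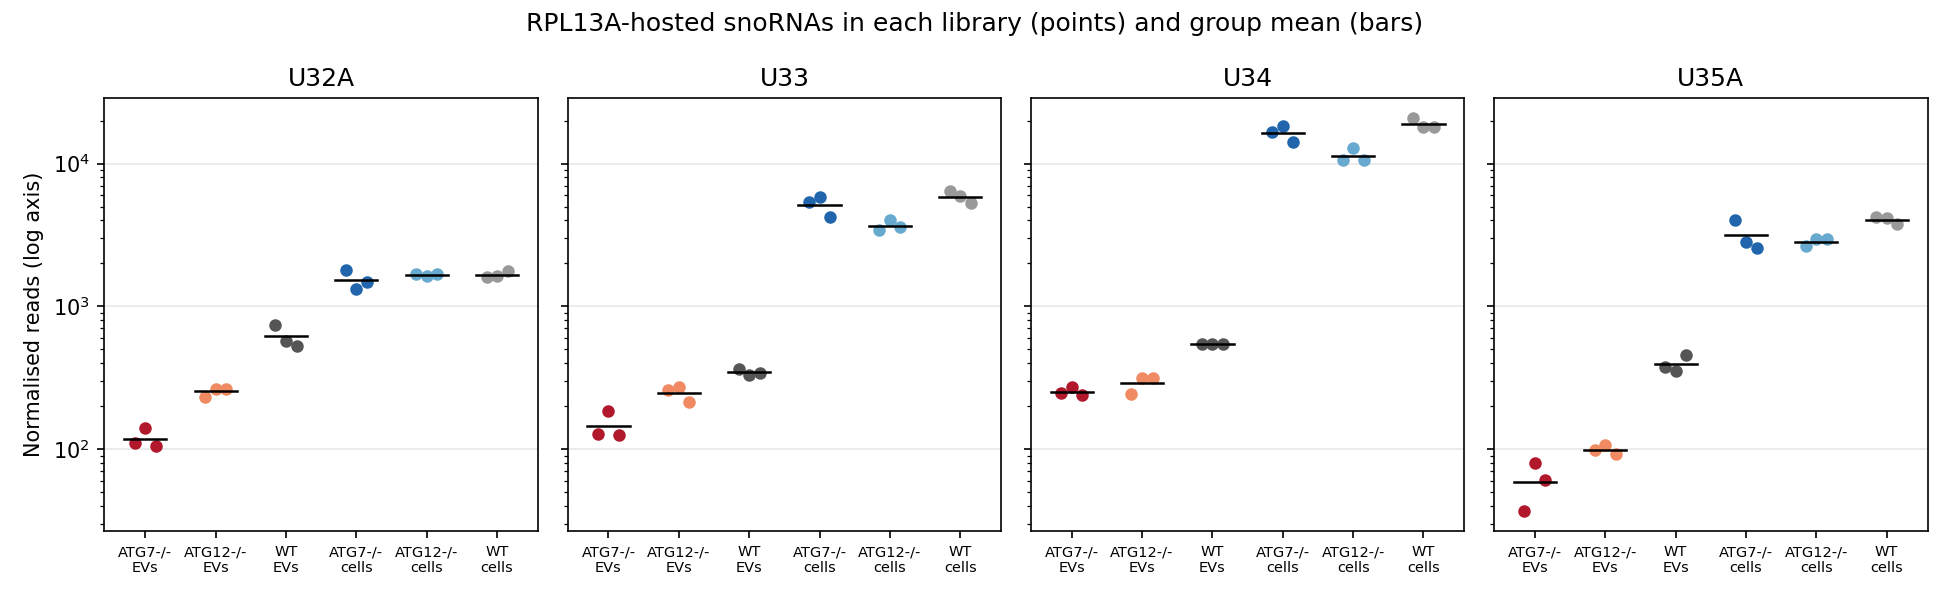
Normalised reads (log axis) of U32A, U33, U34 and U35A in each of the 18 libraries (points) with the group mean (bar); groups run from ATG7-/- EVs on the left to wild type (WT) cells on the right. In EVs of both knockouts each of the 4 sits below wild type EVs, while for U32A the 3 groups of cells overlap.

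In EVs of ATG7-/- cells the 4 snoRNAs stood at 7.74% (U32A), 2.83% (U33), 1.54% (U34) and 1.88% (U35A) of their level in ATG7-/- cells. The log2 changes in EVs against cells of that genotype were -3.68 (SE 0.15) for U32A, -5.15 (SE 0.16) for U33, -6.01 (SE 0.14) for U34 and -5.75 (SE 0.21) for U35A. For ATG12-/- EVs the percentages of the ATG12-/- cell level were 15.2% (U32A), 6.75% (U33), 2.55% (U34) and 3.49% (U35A), and the log2 changes were -2.72 (SE 0.15), -3.89 (SE 0.16), -5.29 (SE 0.14) and -4.83 (SE 0.21) in that order. Each was called, the largest adjusted p being 2.03e-13, and 42.8% (ATG7-/-) and 41.1% (ATG12-/-) of all features were called lower in EVs. Here too the sizes depended on the processing. Over the alternative settings the U32A change was -5.65 to -3.08 for ATG7-/- and -4.81 to -2.44 for ATG12-/-. U35A, which had the next highest EV level relative to cells after U32A in the wild type, was below U33 in this respect in both knockouts.

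Knockout EVs were then set against wild type EVs, to ask whether the snoRNAs in EVs depend on ATG7 and ATG12. All 4 fell in ATG7-/- EVs, U35A and U32A the most. U35A had 36.9, 79.4 and 61.0 normalised reads in ATG7-/- EVs, against 374, 350 and 458 in wild type EVs, 6.84-fold lower (log2 -2.77, SE 0.23, adjusted p = 4.04e-07). U32A had 111, 140 and 105 in ATG7-/- EVs, against 746, 574 and 527 in wild type EVs, 5.14-fold lower (log2 -2.36, SE 0.17, adjusted p = 1.30e-07). These falls put U35A 14th and U32A 27th from the lowest of 140 C/D box snoRNAs tested in EVs. U33 had 127, 185 and 126 normalised reads in ATG7-/- EVs, against 361, 330 and 341 in wild type EVs, a log2 change of -1.26 (SE 0.17, adjusted p = 2.61e-05). U34 had 245, 271 and 240 in ATG7-/- EVs, against 549, 542 and 541 in wild type EVs, a log2 change of -1.11 (SE 0.14, adjusted p = 1.25e-05). U33 and U34, at rank 82 and 97 of 140, fell less than the middle of their class. No ATG7-/- EV library reached the lowest wild type EV library for any of the 4, and 28.9% of the 850 features tested were called lower in this comparison and the groups of 68% did not overlap.

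All 4 also fell in ATG12-/- EVs, with log2 changes closer to 0 than in ATG7-/- EVs. U35A had 99.3, 106 and 92.4 normalised reads in ATG12-/- EVs, 3.92-fold below wild type EVs (log2 -1.97, SE 0.23, adjusted p = 2.92e-05). U32A had 233, 264 and 264 in ATG12-/- EVs, a log2 change of -1.26 (SE 0.17, adjusted p = 5.84e-05). U34 had 241, 314 and 315, a log2 change of -0.92 (SE 0.14, adjusted p = 0.000178). U33 changed least: it had 258, 273 and 213 normalised reads in ATG12-/- EVs, a log2 change from wild type EVs of -0.48 (SE 0.17, adjusted p = 0.0366). The U33 call was lost with edgeR on whole reads (adjusted p = 0.0528), with TMM scaling (0.0507), and when ATG12-/- EV replicate 1 or 3 or any of the 3 wild type EV replicates was left out (0.0581 to 0.15). The groups did not overlap for any of the 4, and 21.1% of all features tested were called lower, 52.7% without overlap.

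Both comparisons share the wild type EV libraries, so the knockout EVs were also compared with each other. U32A was higher in ATG12-/- than in ATG7-/- EVs by 1.10 on the log2 scale (SE 0.17, adjusted p = 0.000168), U33 by 0.78 (SE 0.17, adjusted p = 0.00235) and U35A by 0.80 (SE 0.23, adjusted p = 0.0128). Those 3 calls compare with 26.6% of all features called higher, and the 3 did not overlap between the groups, against 58.7% of features. Of the 136 other C/D box snoRNAs tested, 95 were called higher and 98 did not overlap. Their median log2 difference was 0.96, against 0.79 over the 4. U34 differed by 0.19 (SE 0.14, adjusted p = 0.277), and its 3 values in ATG12-/- EVs overlapped those in ATG7-/- EVs. It ranked 15th from the lowest of 140 C/D box snoRNAs in this comparison. The call of U35A was lost without ATG7-/- EV replicate 1, its lowest library (log2 0.50, adjusted p = 0.0559). By mean level in EVs, each snoRNA was thus lowest in ATG7-/- EVs and highest in wild type EVs, and only for U34 did the knockouts overlap.

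Other values moved with genotype among the EV libraries. The microRNAs miR-486-5p, miR-223-3p, miR-150-5p and miR-122-5p, known from blood, serum and liver, were the listed markers of RNA from outside the cultured cells with a row in the table (4 of 5, miR-451a not analysed here). None was at 0 in any EV library, and they summed to 166 to 259 normalised reads in ATG7-/- EVs, 240 to 323 in ATG12-/- EVs and 89.0 to 129 in wild type EVs. In cells the sum was 1.27 to 11.4. The part of these RNAs and of the deeper ATG7-/- EV libraries in the falls of the 4 snoRNAs was not tested. Scaled to library totals, the log2 changes in ATG7-/- EVs were larger, at -2.74 for U32A, -1.63 for U33, -1.48 for U34 and -3.15 for U35A.

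In ATG7-/- cells none of the 4 snoRNAs was called against wild type cells. ATG7-/- cells had 1808, 1314 and 1473 normalised reads of U32A, against 1596, 1631 and 1755 in wild type cells. U33 had 5398, 5858 and 4217 in ATG7-/- cells, against 6443, 5921 and 5263 in wild type cells. U34 had 16648, 18366 and 14127 in ATG7-/- cells, against 20998, 18105 and 18180 in wild type cells. The groups overlapped for these 3 and also for U35A, which had 4057, 2824 and 2560 normalised reads in ATG7-/- cells, against 4194, 4137 and 3795 in wild type cells. The log2 changes were -0.13 (U32A), -0.20 (U33), -0.23 (U34) and -0.39 (U35A), with SE of 0.14 to 0.17 and adjusted p of 0.124 to 0.558. None of the 4 was called by limma, where 16.8% of the 853 features tested were called and the groups of 35.2% did not overlap. The unadjusted limma p was 0.0363 for U35A and 0.155 to 0.385 for U32A, U33 and U34. Neither edgeR nor DESeq2 called any of them, whereas TMM factors from microRNAs called all 4 lower (log2 -0.66 to -0.92), along with 542 of the 853 features, against 18 called higher. Without ATG7-/- cell replicate 1, its highest library, U35A was called (log2 -0.59, adjusted p = 0.00772).

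ATG12-/- cells had less U33, U34 and U35A than wild type cells, while U32A was not called. U34 had 10558, 12837 and 10688 normalised reads in ATG12-/- cells, against 20998, 18105 and 18180 in wild type cells, a log2 change of -0.75 (SE 0.15, adjusted p = 0.00388). U33 had 3411, 4033 and 3587 in ATG12-/- cells, against 6443, 5921 and 5263 in wild type cells, a log2 change of -0.67 (SE 0.16, adjusted p = 0.00863). Leaving out wild type cell replicate 1 ended the call of U33 (adjusted p = 0.0525). U35A had 2646, 2943 and 2942 normalised reads in ATG12-/- cells, against 4194, 4137 and 3795 in wild type cells, a log2 change of -0.51 (SE 0.17, adjusted p = 0.0397). That call was lost under each left-out library and with edgeR, DESeq2, TMM, library totals and no filter (adjusted p 0.0756 to 0.164). U32A had 1695, 1633 and 1679 normalised reads in ATG12-/- cells, against 1596, 1631 and 1755 in wild type cells, a log2 change of 0.01 (SE 0.14, adjusted p = 0.971). The groups did not overlap for U33, U34 and U35A and did for U32A. The 3 calls compare with 18.2% of all features called lower, and 48.5% of features did not overlap.

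Between the knockouts, U33 (log2 -0.48, SE 0.16, adjusted p = 0.0454) and U34 (log2 -0.53, SE 0.15, adjusted p = 0.0279) were lower in ATG12-/- cells than in ATG7-/- cells, where 14.4% of features were called lower and 34.2% did not overlap. The values of U33 and U34 did not overlap between those groups. U32A (log2 0.14, adjusted p = 0.549) and U35A (log2 -0.12, adjusted p = 0.68) were not called. Neither fall held under all settings: U33 lost its call with library totals, TMM, TMM from microRNAs, no filter and edgeR (adjusted p 0.0687 to 0.465), and U34 with TMM from microRNAs and no filter (0.307 and 0.166). Leaving out 1 library ended the call of U33 without ATG7-/- cell replicate 1 or 2 or any ATG12-/- cell replicate (adjusted p 0.0649 to 0.169), and that of U34 without ATG7-/- cell replicate 2 or ATG12-/- cell replicate 1 or 3 (0.0867 to 0.128).

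The change in EVs was then set against the change in cells of the same genotype, as the difference of the log2 changes over all 18 libraries. For ATG7-/- all 4 snoRNAs had a lower log2 change in EVs than in cells. The difference was -2.38 for U35A (SE 0.29, adjusted p = 8.44e-07), -2.23 for U32A (SE 0.22, adjusted p = 3.50e-08), -1.06 for U33 (SE 0.23, adjusted p = 0.000545) and -0.88 for U34 (SE 0.20, adjusted p = 0.00078), where 28.7% of all features were called lower. The call of U34 was lost with TMM factors from microRNAs (log2 -0.51, adjusted p = 0.0602). For ATG12-/- 2 of the 4 passed. U35A (log2 -1.46, SE 0.29, adjusted p = 0.00113) and U32A (log2 -1.27, SE 0.22, adjusted p = 0.000254) again had the lower change in EVs, against 12% of features called lower. U33 and U34 did not pass: the difference was 0.20 for U33 (SE 0.23, adjusted p = 0.554) and -0.16 for U34 (SE 0.20, adjusted p = 0.567). The U33 value turned negative with library totals, TMM and edgeR (log2 -0.39, -0.12 and -0.10), and U34 was called with library totals (log2 -0.75, adjusted p = 0.00459).

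**Figure D3:**
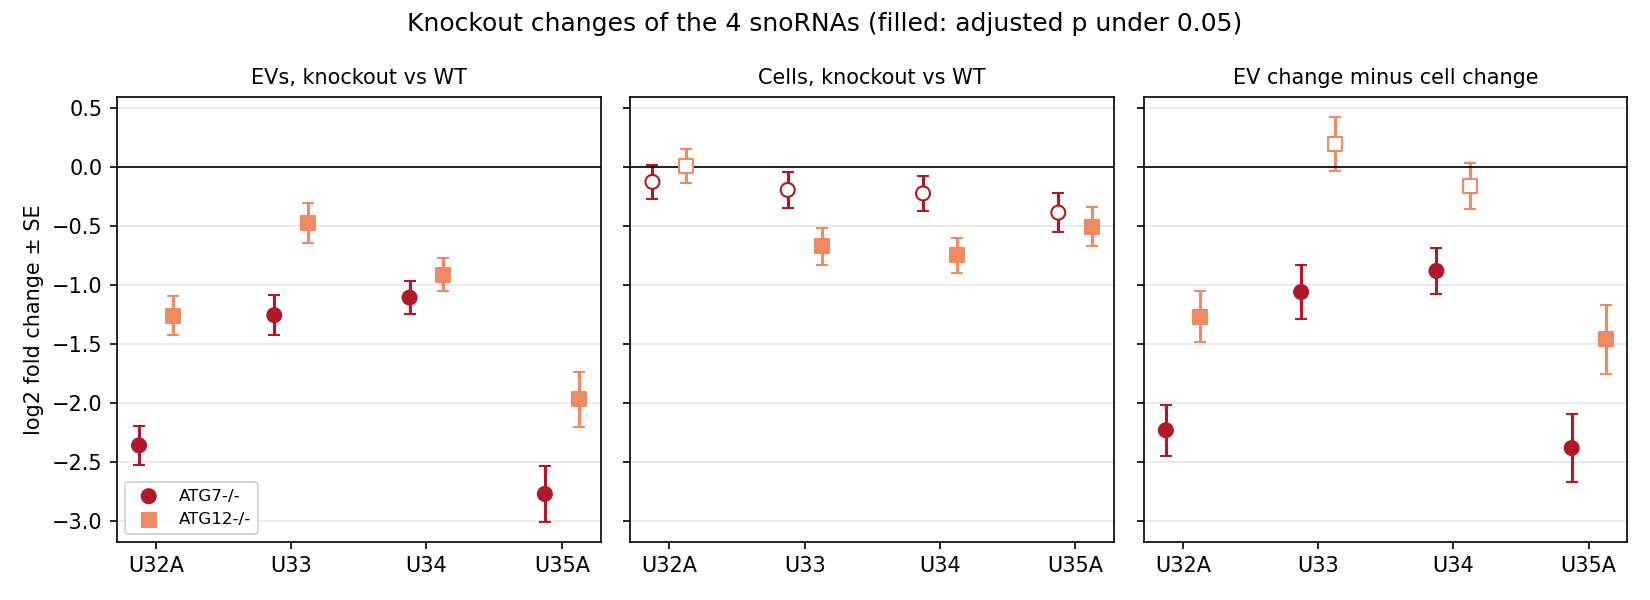
Log2 fold changes (± SE) of the 4 snoRNAs, knockout against wild type (WT), in EVs (left), in cells (middle) and as the EV change minus the cell change (right); circles are ATG7-/-, squares ATG12-/-, and filled symbols have an adjusted p under 0.05. U32A and U35A lie lowest in EVs for both knockouts, while in cells U32A stays close to 0.

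Ratios between the 4 within a library do not depend on scaling, since both values are divided by the same size factor. Per 100 bases of length, the order in cells was U34, U33, U35A and U32A in all 3 genotypes, with no overlap between neighbours. In wild type cells the mean levels per 100 bases were 26893 normalised reads for U34, 6912 for U33, 4700 for U35A and 1977 for U32A. Wild type EVs had 766 normalised reads per 100 bases of U34 and 733 of U32A, which overlapped, and 458 of U35A and 405 of U33, which overlapped too. Before division by length the wild type EV means were 544 for U34 and 615 for U32A, so the order of U34 and U32A depends on that division. Whether reads of these RNAs scale with length was not tested. In ATG12-/- EVs the levels per 100 bases were 409 (U34), 302 (U32A), 292 (U33) and 115 (U35A), and in ATG7-/- EVs 355 (U34), 171 (U33), 141 (U32A) and 68.7 (U35A). U32A and U33 overlapped in EVs of both knockouts, and U35A was lowest in both. Of the 4 per length (mean ± SD, n = 3 per group), U34 made up 32.5% ± 1.71 in wild type EVs and 66.4% ± 1.22 in wild type cells. U32A made up 30.9% ± 4.13 in wild type EVs and 4.91% ± 0.57 in wild type cells.

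The 6 ratios between members were compared over 7 comparisons, 42 tests in all, with two-sided exact permutation tests and Benjamini-Hochberg adjustment over the 42. With EV and cell labels permuted within genotype over the 18 libraries, the smallest p possible is 0.00025. U32A rose in EVs relative to each of the other 3: the log2 ratio was 2.86 higher in EVs than in cells against U34, 2.04 higher against U35A and 1.76 higher against U33 (exact permutation p = 0.00025, adjusted p = 0.00263 for each). As a ratio of per-base levels, U32A to U34 was 0.395 in ATG7-/- EVs, 0.743 in ATG12-/- EVs and 0.945 in wild type EVs, against 0.079, 0.125 and 0.074 in the cells of the same genotypes (geometric means, n = 3 each). U33 to U34 was 1.10 higher in EVs than in cells on the log2 scale (exact permutation p = 0.00025, adjusted p = 0.00263), in the same direction in 3 of 3 genotypes. U34 to U35A was 0.82 lower in EVs (exact permutation p = 0.0045, adjusted p = 0.0378), a call that was lost when any 1 of 7 libraries was left out (adjusted p 0.0525 to 0.0987): ATG7-/- EV replicates 2 and 3, ATG12-/- EV replicate 1, ATG7-/- cell replicates 2 and 3, and ATG12-/- cell replicates 1 and 2. U33 to U35A did not pass (log2 difference 0.28, exact permutation p = 0.2115, adjusted p = 0.296), but this mean joins opposite directions, the same in only 2 of 3 genotypes. In the wild type the ratio was lower in EVs than in cells (0.89 against 1.47, geometric means). In the knockouts it was higher in EVs, at 2.57 against 1.68 for ATG7-/- and 2.52 against 1.31 for ATG12-/-.

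Among EVs, all 4 ratios of U32A or U35A with U33 or U34 were free of overlap between each knockout and the wild type, though 3 libraries against 3 cannot give an exact permutation p below 0.1 (adjusted p = 0.168). Single features did not overlap in 68% (ATG7-/-) and 52.7% (ATG12-/-) of cases, and ratios between other features were not analysed. U34 to U35A was 5.41 per base in ATG7-/- EVs (4.13 to 8.05 over libraries), 3.52 in ATG12-/- EVs (2.94 to 4.13) and 1.68 in wild type EVs (1.43 to 1.88). Neither knockout overlapped the wild type. U32A to U34 was 0.369 to 0.437 in the ATG7-/- EV libraries and 0.709 to 0.816 in the ATG12-/- EV libraries, against 0.822 to 1.15 in the wild type EV libraries, again with no overlap. U33 to U35A was 2.57 in ATG7-/- EVs and 2.52 in ATG12-/- EVs, against 0.89 in wild type EVs, with both knockouts above all wild type libraries. For U32A to U35A the ATG7-/- EV values (1.76 to 3.07) overlapped those of wild type EVs (1.18 to 2.04), and the ATG12-/- EV values (2.40 to 2.93) did not. Likewise for U33 to U34, the ATG7-/- EV values (0.431 to 0.569) overlapped those of wild type EVs (0.509 to 0.550), and the ATG12-/- EV values (0.565 to 0.893) did not. In cells the U32A to U33 ratio was 0.410 to 0.503 in ATG12-/- libraries, against 0.251 to 0.337 in wild type libraries, with no overlap. The ratios U32A to U34, U32A to U35A, U33 to U35A and U34 to U35A were also free of overlap between ATG12-/- and wild type cells. Between ATG7-/- and wild type cells every ratio overlapped. The U33 to U34 ratio stayed between 0.242 and 0.280 in all 9 libraries, the narrowest range of the 6 ratios across genotypes.

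**Figure D4:**
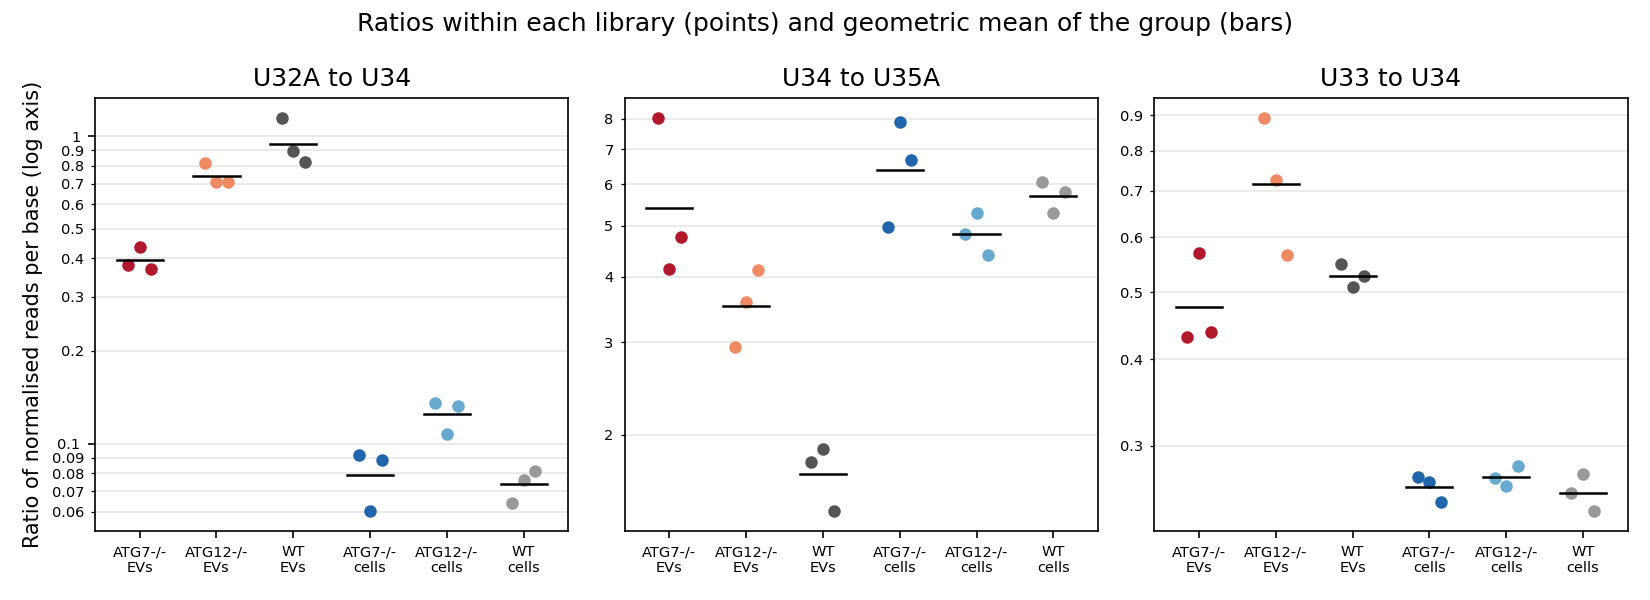
Ratios of normalised reads per base between members (log axes) within each library (points), with the geometric mean of each group (bar). U32A to U34 lies between 0.369 and 1.15 in the 9 EV libraries and between 0.06 and 0.136 in the 9 cell libraries; U33 to U34 is between 0.242 and 0.280 in all cell libraries.

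The 4 together took 0.0152% ± 0.0018 of assigned reads in ATG7-/- EVs, 0.0240% ± 0.0020 in ATG12-/- EVs and 0.0653% ± 0.0024 in wild type EVs (SD, n = 3 each). They took 2.74% ± 0.16 in ATG7-/- cells, 2.26% ± 0.21 in ATG12-/- cells and 3.02% ± 0.21 in wild type cells. As a share of C/D box snoRNA reads alone, they were 0.215% ± 0.011 in ATG7-/- EVs, 0.115% ± 0.014 in ATG12-/- EVs and 0.298% ± 0.041 in wild type EVs, against 4.89% ± 0.38, 4.32% ± 0.37 and 4.93% ± 0.41 in the cells of the same genotypes. The order of the knockout EVs thus turned with the denominator: ATG12-/- EVs were higher among all reads and lower among C/D box reads. The C/D box reads include those of U3, listed under several entries. In limma U3 was 1.58 higher on the log2 scale in ATG12-/- than in ATG7-/- EVs (adjusted p = 1.24e-05). The part of U3 in the turned order was not tested. C/D box snoRNAs as a whole took 6.15% to 8.44% of reads in the ATG7-/- EV libraries, 20.2% to 22.3% in ATG12-/- EVs and 19.9% to 25.6% in wild type EVs.

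The 4 were read against other C/D box snoRNAs, which are largely intronic. Not all of these act in the same way, since U3 acts in cleavage of the ribosomal RNA precursor. In ATG7-/- EVs against wild type EVs their median log2 change was -1.81, compared with -1.69 for 34 tested C/D box snoRNAs in other ribosomal protein genes (30 lower, none higher), -1.42 for the 10 snoRNAs of GAS5 (8 lower) and -1.55 for the 8 of SNHG1 (7 lower, 1 higher). All 136 other C/D box snoRNAs tested had a median of -1.44 (113 lower, 2 higher), and all 850 features 0.11. For ATG12-/- EVs the median over the 4 was -1.09, compared with -0.77 for those of other ribosomal protein genes (22 of 34 lower), -0.44 for GAS5, -0.73 for SNHG1, -0.56 for all other C/D box snoRNAs (62 lower, 9 higher) and 0.05 for all features. In ATG12-/- cells against wild type cells the medians were -0.59 over the 4, -0.52 for other ribosomal protein genes (21 of 37 lower), -0.49 for all other C/D box snoRNAs (72 of 146 lower) and -0.13 for all features. The knockout changes of the 4 in cells and EVs were therefore within the range of their class, and a fall in EVs was not particular to this host gene. For the EV change minus the cell change of ATG7-/-, the median was -1.65 over the 4, -1.37 for other ribosomal protein genes (30 of 37 lower) and -1.28 for all other C/D box snoRNAs (113 lower, 1 higher). For that of ATG12-/-, the median was -0.72 over the 4, -0.44 for other ribosomal protein genes (11 of 37 lower) and -0.01 for all other C/D box snoRNAs (31 lower, 17 higher).

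**Figure D5:**
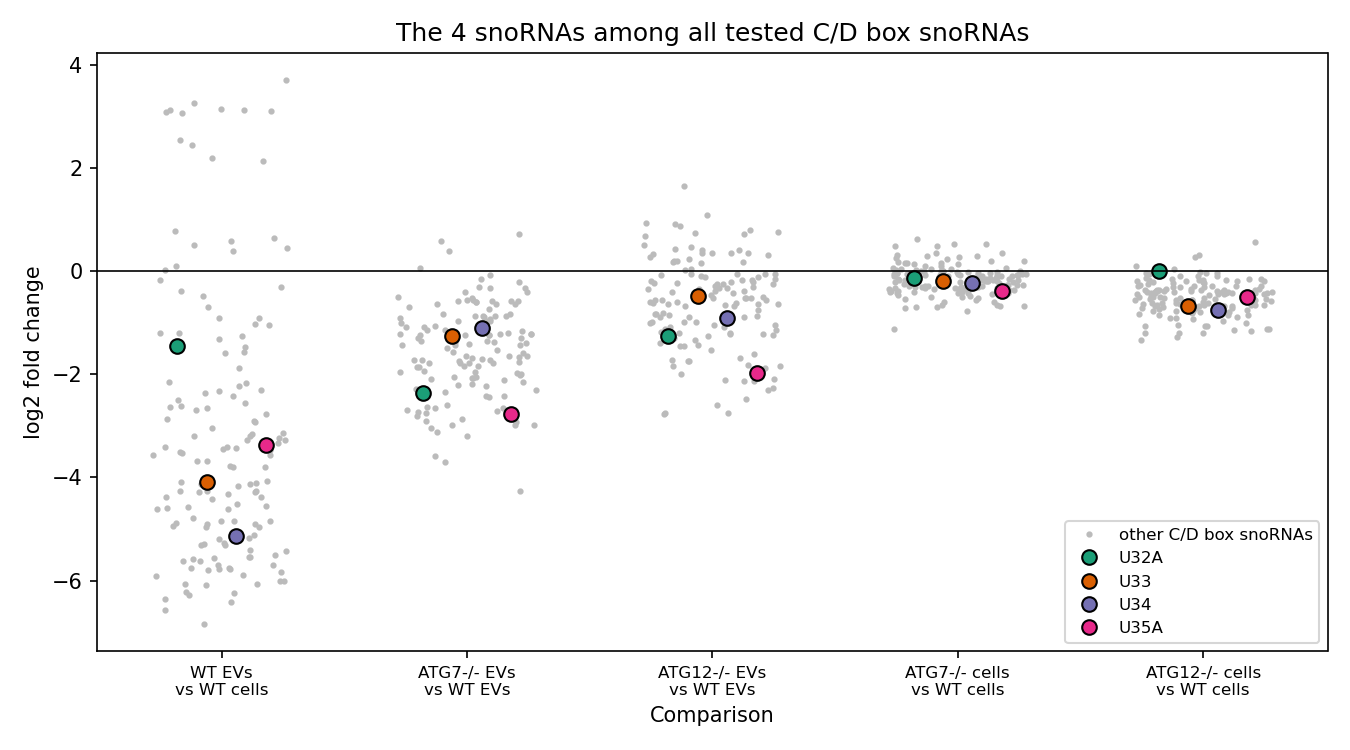
Log2 fold changes of U32A, U33, U34 and U35A (coloured) and of all other tested C/D box snoRNAs (grey points) in 5 comparisons, with a small sideways scatter that carries no value. U32A is high among its class in wild type (WT) EVs against cells and in ATG12-/- cells, and U35A and U32A are in the lower part of it in EVs of both knockouts.

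Within the class, U32A ranked 145th from the lowest of 150 C/D box snoRNAs in ATG12-/- cells against wild type cells, and 18th from the lowest in the EV change minus the cell change of ATG12-/-, in which U35A ranked 15th. Among C/D box snoRNAs of other ribosomal protein genes, U73a, in RPS3A, fell further than any of the 4 in ATG7-/- EVs (log2 -3.59). In ATG12-/- EVs both U101 (log2 -2.75, in RPS12) and U73a (-2.47) fell further than U35A. In ATG12-/- cells U36C (-1.20, in RPL7A), mgh18S-121 (-1.15) and Z17B (-1.06, both in RPL23A) fell most, each further than U34.

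How reads that fit several near-identical copies were counted is not given in the sources used here. U32B, a copy of U32A on chromosome 6 that is 89.3% identical to it, had 1 and 2 reads in a pair of ATG7-/- cell libraries and 0 reads in the other 16 libraries.

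U3, the abundant nucleolar C/D box snoRNA that acts in cleavage of the ribosomal RNA precursor, differed in direction from the 4 between compartments. It was higher in wild type EVs than in wild type cells by 3.07 on the log2 scale (SE 0.18, adjusted p = 6.56e-13). Its EV change minus its cell change was -1.07 for ATG7-/- (SE 0.26, adjusted p = 0.0015) and 0.56 for ATG12-/- (SE 0.26, adjusted p = 0.112).

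Pearson's r on log2 values describes which features had a pattern most like that of the mean of the 4 among 901 others, over libraries that share depth and scaling. Over all 18 libraries these were the C/D box snoRNAs snR38C (r = 0.9985), U14B (0.9973), SNORD10 (0.9958), U79 (0.9957) and U83A (0.9955), a ranking dominated by the gap between EVs and cells. Over the 9 EV libraries they were U27 (0.9939), ACA64 (0.9917), U73a (0.9896), snR38C (0.9891) and U71a (0.9890), of which ACA64 and U71a are H/ACA box snoRNAs. Over the 9 cell libraries they included U36C (0.9770), SNORD121A (0.9744), U77 (0.9701) and U49B (0.9667). Between members, r over the 9 cell libraries was 0.983 for U33 with U34, 0.744 for U33 with U35A and -0.218 for U32A with U33. Over the 9 EV libraries all 6 pairs had r between 0.825 and 0.952.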

How the data were processed

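The deposited table gives 1 value per feature for each of 18 libraries, a scaled signal. The tools named in the submitters' processing notes are Bowtie2 2.3, cutadapt 2.3, DESeq2 and bedtools, and the build is GRCh38 (hg38); the counting rule for reads that match several features is not given in the sources used here. Per the labels' protocols, SMARTer small RNA libraries (12 PCR cycles) were read as single 50-base reads. Within each library 100.0% of the deposited values were whole multiples of 1 step (tolerance 1e-06), so whole reads were recovered; p-values measure the spread between libraries labelled as biological replicates. The main test was limma 3.58.1 (R 4.3.3, trend, two-sided) on log2(value + 1), over 9 EV libraries, 9 cell libraries or all 18. Alternatives were edgeR 4.0.16, DESeq2 1.42.0, library totals, TMM factors (all features or microRNAs), pseudocounts 0.5 and 5, no filter or a minimum of 50, a replicate block and leaving out each library. The limma procedure was also run on simulated counts with rises and falls in equal number, which cannot show how it handles a fall of a whole class.

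The 4 snoRNAs and all lists were chosen with earlier results of these data known. From the list of C/D box snoRNAs in other ribosomal protein genes, up to 3 called features with the largest rise and fall per comparison could be named. Some features that this rule or the likeness ranking would name are not reported here. Depth was 1188388 to 3382605 reads per library, so a snoRNA with fewer than 100 reads, as U35A in EVs of both knockouts, has a counting error that adds to the replicate spread. In ATG7-/- EVs, U32A (84, 120 and 79 reads) and U33 (96, 158 and 95 reads) were also below 100 in some libraries.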

Additional observations from a re-analysis of the deposited data

Results flagged for a closer look

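For 6 values the knockout change in EVs differed from the knockout change in cells by limma's test of that difference (adjusted p under 0.05). For ATG7-/- they were -2.2336 for U32A, -1.0615 for U33, -0.8831 for U34 and -2.3846 for U35A. For ATG12-/- they were -1.2703 for U32A and -1.4636 for U35A. Each is a log2 difference over 18 libraries, and each is negative: the log2 change in EVs was below the log2 change in cells. Of all 905 features tested, 28.7% were called lower in this difference for ATG7-/- and 12% for ATG12-/-. Of the 146 other C/D box snoRNAs, 113 were called lower and 1 higher for ATG7-/-, and 31 lower and 17 higher for ATG12-/-.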

How the results depend on the processing

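All 4 snoRNAs stayed called lower in EVs than in cells of each genotype, and in ATG7-/- EVs against wild type EVs, under all 10 alternatives and each left-out library. Against wild type EVs, U33 in ATG12-/- EVs was -0.47 with TMM, -0.46 with edgeR and -0.55 to -0.37 with 1 library left out. U35A in ATG12-/- against ATG7-/- EVs ranged over 0.50 to 1.05 with 1 library left out. With library totals the median of all features moved by -0.36 (ATG7-/- EVs), -0.35 (ATG12-/- EVs) and -1.44 (wild type EVs against cells), and the share of calls that were higher was 31.8% and 22.2% in the EVs of ATG7-/- and ATG12-/-, against 53.7% and 51.8%.

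In ATG7-/- against wild type cells, TMM from microRNAs (median shift -0.53) called 560 features against 143 and all 4 snoRNAs, at -0.66 (U32A), -0.73 (U33), -0.76 (U34) and -0.92 (U35A). Leaving out 1 library gave 74 to 158 features, 0 to 1 of the 4, and U35A at -0.59 to -0.25. In ATG12-/- against wild type cells, U35A was -0.28 with library totals, -0.36 with TMM, edgeR and DESeq2, -0.51 with no filter and -0.55 to -0.46 with 1 library left out. U32A was -0.25 with TMM from microRNAs and -0.0197 to 0.0489 with 1 library left out, U33 -0.75 to -0.61, features called 96 to 150 and called snoRNAs 1 to 2.

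In ATG12-/- against ATG7-/- cells, 1 of the 4 was called with library totals, TMM and edgeR and 0 with TMM from microRNAs and no filter. Features called over the 10 alternatives were 135 to 191, against 171 in the main test. Of these, 69 were lower with library totals and 30 with TMM from microRNAs, against 123 in the main test. U33 was -0.34 (library totals), -0.38 (TMM), -0.20 (TMM from microRNAs), -0.48 (no filter) and -0.39 (edgeR), U34 -0.25 (TMM from microRNAs) and -0.53 (no filter), and U35A 0.0204 (library totals) and 0.16 (TMM from microRNAs). Leaving out 1 library gave 79 to 223 features, 0 to 2 of the 4, U33 at -0.62 to -0.38, U34 at -0.63 to -0.44 and U35A at -0.253 to 0.0791.

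For the EV change minus the cell change, U34 was -0.51 for ATG7-/- with TMM from microRNAs, no longer called (adjusted p = 0.0602); for ATG12-/-, U33 was -0.39 (library totals), -0.12 (TMM) and -0.10 (edgeR) and U34 -0.75 (library totals). The share of the 4 in ATG12-/- minus ATG7-/- EVs was -0.1002 percentage points among C/D box reads. With 1 library left out, the log2 ratio U34 to U35A between EVs and cells was -0.92 to -0.75, U33 to U35A between knockout EVs -0.18 to 0.18, and between ATG7-/- and wild type cells U32A to U33 was -0.0484 to 0.272, U32A to U34 -0.0123 to 0.289 and U33 to U34 -0.0139 to 0.0741. The cause of these shifts was not tested.

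The labels do not say whether same-numbered samples came from the same culture, and the main test used no pairing. Correlations of deviations between same-numbered libraries were -0.225 to 0.198, which cannot decide that question. With a replicate block no call of the 4 changed, and U33 in ATG12-/- EVs had an adjusted p of 0.0456; the features called were 523 in ATG7-/- EVs and 351 in ATG12-/- EVs, against 531 and 371.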
